A study of Mus musculus with 10 samples.

Results

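The genes described here build the actin, myosin and tubulin skeleton of the cell, and were read on arrays of mouse hepatocyte RNA. They are the probe sets, other than array controls, with 1 gene symbol that begins with Actn, Actr, Arpc, Tuba, Tubb, Tubg, Tpm, Myl, Myh or Myo and a digit. The symbols Acta1, Acta2, Actb, Actc1, Actg1, Actg2, Cfl1, Cfl2, Pfn1, Pfn2, Cotl1, Vim, Vcl, Tln1, Flna, Tagln and Tagln2 were added. This took in 105 of the 12488 probe sets on the array, for 77 of the 8251 genes with a set of their own. A filter on dim signal left 71 of them, for 58 genes, to be tested among 7453 probe sets in all.

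The study measured total RNA on 10 arrays in 4 groups. There were 2 arrays of normoxic untreated cells, 2 of normoxic adeno-treated cells, 3 of hypoxic adeno-treated wild-type cells and 3 of hypoxic HIF-1alpha null cells, and no normoxic null array. HIF-1alpha drives much of the transcriptional response to low oxygen, and the comparisons ask what hypoxia changes in hepatocytes and how much of it needs that factor. Sample titles carry a number, 1 to 3 in the hypoxic groups and 1 to 2 in the normoxic groups. The sources used here do not give what that number stands for. Nor do they give the adeno vector, whether null cells received it, the means of removing HIF-1alpha, whether normoxic cells were wild type, or how low oxygen was and for how long. Nothing in the labels says that arrays come from separate cultures, so p-values measure only the spread between these samples, which may be technical.

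Actin filaments grow from the barbed end with profilin-bound monomers, branch at the Arp2/3 complex and are cut by cofilin. Alpha-actinin, filamin, talin and vinculin cross-link filaments or tie them to the membrane, tropomyosins and transgelins lie along them, and myosin II pulls on them. Microtubules are polymers of alpha- and beta-tubulin that start from gamma-tubulin. In hepatocytes actin and myosin surround the bile canaliculus, while the smooth muscle forms of actin, myosin, transgelin and tropomyosin are best known in liver from activated stellate cells and vessel walls. Many actin and actin-binding genes are targets of serum response factor, which binds the CArG box, a CC and GG pair around an A/T-rich core.

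Promoters of 4 genes are shown, because the genes carry a CArG box or a near match and moved differently between arrays: Acta2 (smooth muscle alpha-actin) and Myl9 (a regulatory light chain of smooth muscle and non-muscle myosin II) were lower on the number 3 arrays than on all others, Vcl (vinculin) fell against number 1 on 1 of its 2 sets only, and Actg1 (cytoplasmic gamma-actin) did not fall. Each is the 250 bases before the gene's start in RefSeq's annotation of GRCm38.p6, written 5′ to 3′ on the gene's strand. Capitals mark CArG boxes, or for Acta2, which had no exact box, matches with 1 other base in the core. Acta2 lies on the minus strand at chr19:34255374-34255623, Myl9 on the plus strand at chr2:156775214-156775463, Vcl on the plus strand at chr14:20929148-20929397 and Actg1 on the minus strand at chr11:120348496-120348745.
Acta2: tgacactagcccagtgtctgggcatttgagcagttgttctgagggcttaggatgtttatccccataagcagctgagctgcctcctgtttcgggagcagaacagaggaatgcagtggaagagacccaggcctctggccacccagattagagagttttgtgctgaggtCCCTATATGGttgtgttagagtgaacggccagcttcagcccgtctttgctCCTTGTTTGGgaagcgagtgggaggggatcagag
Myl9: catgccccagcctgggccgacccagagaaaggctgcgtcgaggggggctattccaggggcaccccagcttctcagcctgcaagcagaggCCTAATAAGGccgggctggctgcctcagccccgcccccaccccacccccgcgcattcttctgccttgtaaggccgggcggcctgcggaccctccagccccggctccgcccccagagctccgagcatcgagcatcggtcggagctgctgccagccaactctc
Vcl: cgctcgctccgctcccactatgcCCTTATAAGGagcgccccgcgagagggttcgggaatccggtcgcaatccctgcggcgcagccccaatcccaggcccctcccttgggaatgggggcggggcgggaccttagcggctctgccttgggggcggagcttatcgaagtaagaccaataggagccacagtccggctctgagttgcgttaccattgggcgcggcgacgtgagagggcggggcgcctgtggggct
Actg1: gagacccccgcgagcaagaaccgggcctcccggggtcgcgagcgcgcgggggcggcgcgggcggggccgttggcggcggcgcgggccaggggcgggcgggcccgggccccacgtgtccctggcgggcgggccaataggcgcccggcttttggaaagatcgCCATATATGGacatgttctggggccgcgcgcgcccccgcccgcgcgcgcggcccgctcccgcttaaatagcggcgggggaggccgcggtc
An exact box has 6 bases of A or T between CC and GG, and its reverse complement is a box too. Promoter windows of 250 bases before to 50 after the start were listed for 65 of the 77 genes, and 11 of these genes (16.9%) held an exact box, against 1.81% of all 27025 genes with a window. With 1 other base allowed in the core, 24.6% of the 65 genes and 11.3% of all genes had a match. Of the 11 genes with an exact box, 7 were tested, and 3 of them (Actc1, Myl9 and Vcl) had a probe set that fell on the number 3 arrays relative to number 1, where 23 of all 58 tested genes had a set that changed. The Actc1 set carries the suffix f, which marks a set that can match related transcripts, and Vcl fell on 1 of its 2 sets. A match describes the letters in this window only. Tagln, Cotl1, Actb and Myh11 are among the genes with no window listed.

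The deposited values are scaled intensities, with array medians of 60 to 70.9. On both number 3 arrays the 3′ control probe set for 18S ribosomal RNA read 8179 and 8163, against 156 to 3287 on the other 8 arrays. The labelled cell type was borne out by 15 hepatocyte marker genes, all above the filter, with a summed intensity of 44807 to 71139 per array. Some markers of other liver cells read above the filter too. The stellate cell and fibroblast list had 22 of its 24 genes on the array, 21 of them above the filter, and its summed intensity was 5905 and 5315 on the number 3 arrays against 9043 to 16775 on the other 8. The biliary list, with 5 of 8 genes on the array and 4 above the filter, summed to 2556 and 2456 against 2933 to 6453. Fewer genes of the other lists were above it: 8 of 14 macrophage, 3 of 11 endothelial and 1 of 3 mesothelial genes on the array. No gene of any marker list was at or under 4.7 on all arrays, but 4.7 is the 10th percentile of all deposited values and not a level of detection. In bulk RNA, fewer cells of a type and less RNA per cell cannot be told apart.

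The largest differences among the cytoskeleton genes lay between arrays of different number, not between the study's groups. All number comparisons used a fit with a term for each group and each number, and number 3 exists in the hypoxic groups alone. Changes are on the scale of log2(intensity + 4.7). Against number 1, 25 of the 71 probe sets were lower on the number 3 arrays and 1 was higher past an adjusted p of 0.05 with limma. That is 36.6% of them, where 21.7% of all 7453 probe sets passed, and 35.2% lower where 12.8% of all were lower and 8.99% higher. The median log2 change was -0.34, against -0.02 over all probe sets, and 54 of 71 changes were negative. The 26 probe sets stand for 23 genes. Counts by family below rest on few sets each and are to be read beside the 12.8% of all sets that were lower. Without hypoxic null array 3, the count of 26 dropped to 15.

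**Figure D1:**
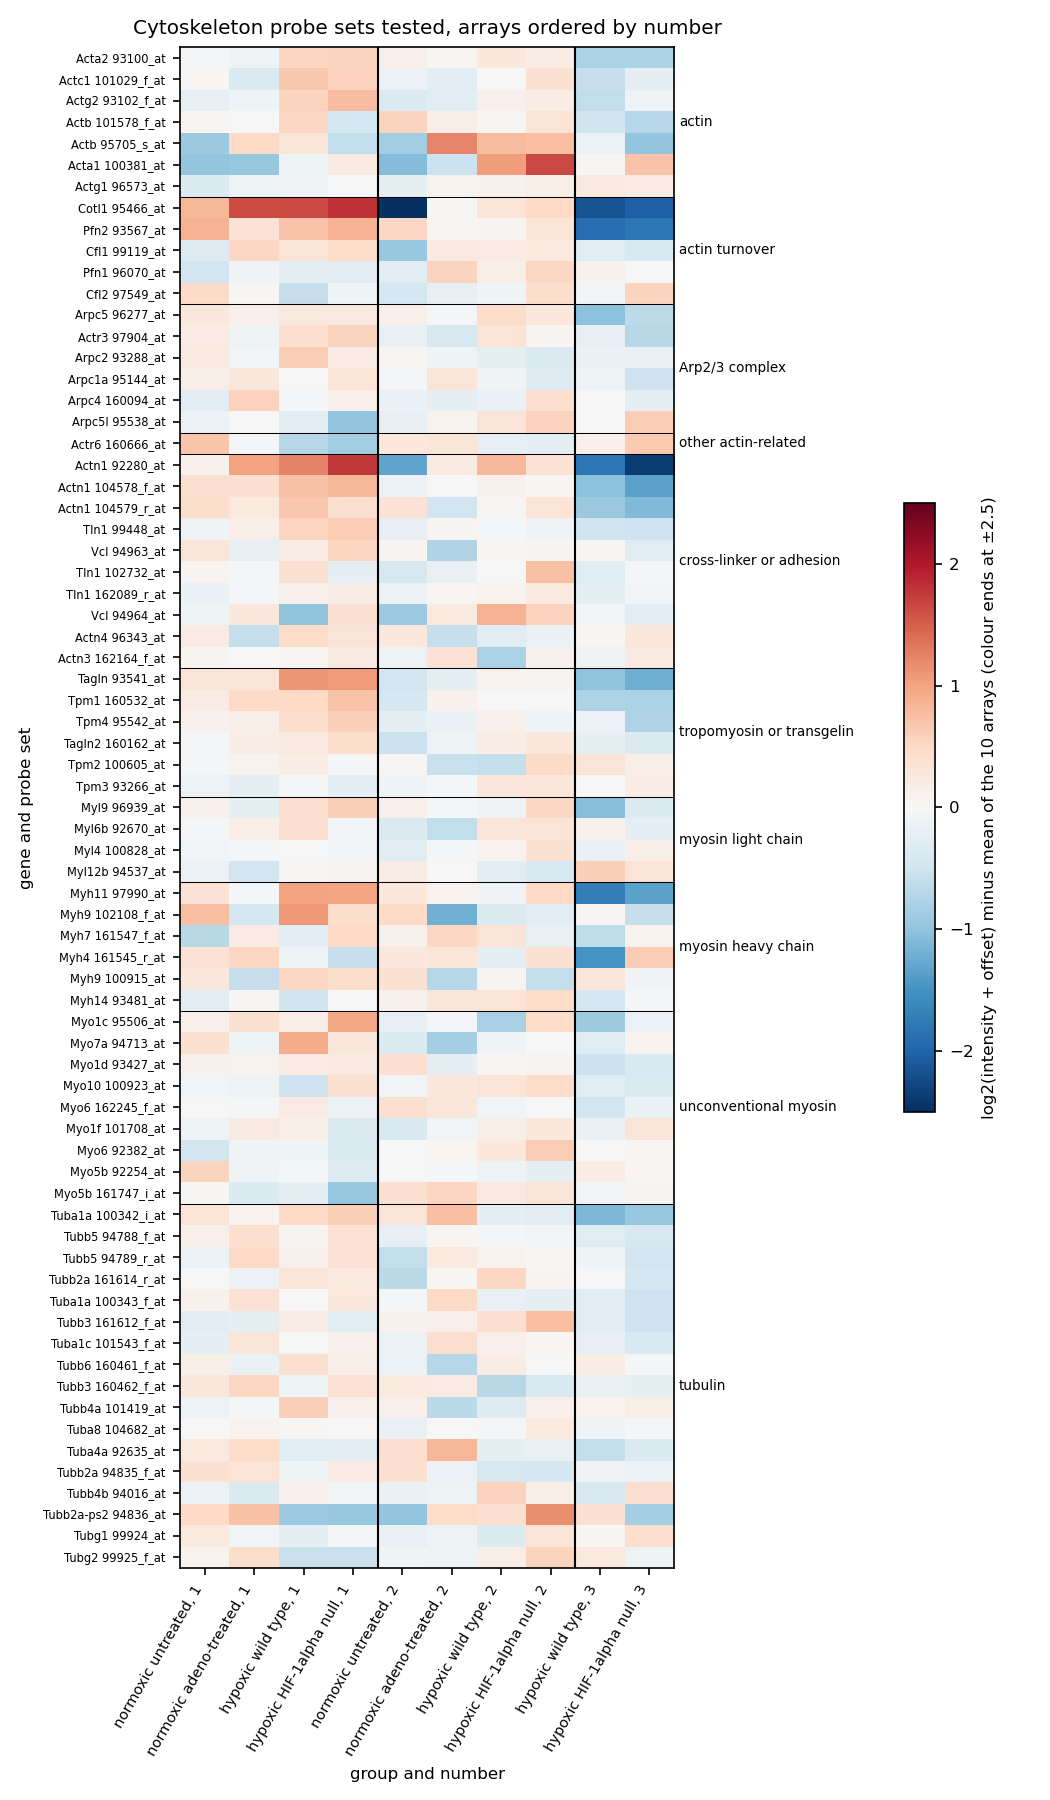
Log2 intensity of the 71 tested probe sets on each array, as the difference from the mean of the 10 arrays (colour, ending at ±2.5), with probe sets in rows by role and arrays in columns ordered by number. The right block, the 2 number 3 arrays, holds most of the deep blue, in Cotl1, Pfn2, Actn1, Tagln, Myh11 and Acta2.

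Among actins, Acta2, which makes the contractile fibres of smooth muscle and activated stellate cells, fell most. It read 2321 and 2625 on the untreated arrays 1 and 2, 2271 and 2497 on the adeno-treated, 3487, 2914 and 1401 on hypoxic wild type 1, 2 and 3, and 3535, 2762 and 1399 on hypoxic null 1, 2 and 3. Both number 3 arrays lay below all the others, and the fitted change was -1.21 (SE 0.14, adjusted p 0.000367, limma). The probe sets for Actg2 (enteric smooth muscle actin) and Actc1 (cardiac actin) fell by 0.93 and 0.94, but both carry the suffix f, which marks a set whose probes can match related transcripts, so which actin they read is uncertain. Acta1, skeletal muscle actin, had a fitted change of 0.03 (adjusted p 0.965, limma), with direct differences of array 3 from array 1 of 0.12 in wild type and 0.49 in null.

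Cytoplasmic gamma-actin, Actg1, did not follow Acta2. Its values were 4751 and 5056 on the untreated arrays, 5502 and 6410 on the adeno-treated, 5643, 6466 and 6964 on hypoxic wild type, and 5977, 6731 and 6939 on hypoxic null. Here both number 3 arrays were the highest of all 10, by a small margin, and the change of 0.25 against number 1 did not pass (adjusted p 0.0873, limma). Both number 3 arrays lay above the other 8 for 2 of the 71 probe sets, Actg1 and Myl12b, and below them for 18. Over all 7453 probe sets these shares were 6.05% above and 10% below, against 2.82% and 25.4% of the cytoskeleton sets.

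**Figure D2:**
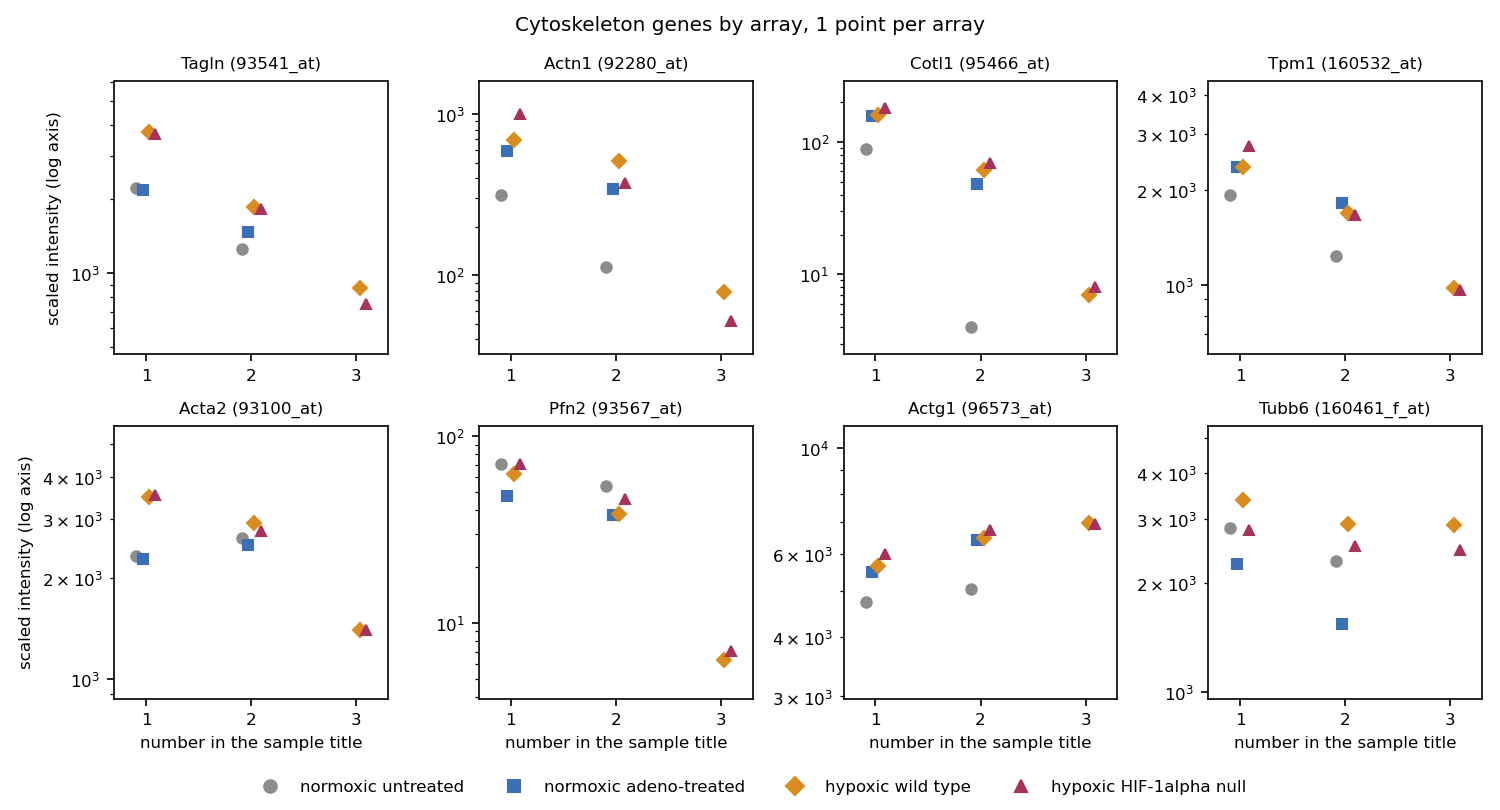
Scaled intensity (log axis) of 8 probe sets against the number in the sample title, 1 point per array, coloured by group. Tagln, Actn1, Cotl1, Tpm1, Acta2 and Pfn2 are low on the number 3 arrays in both hypoxic groups, Actg1 is not, and Tubb6 is lowest in normoxic adeno-treated cells.

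Beta-actin, Actb, the other cytoplasmic actin and a common reference transcript, gave answers that depended on the probe set. The ordinary set with the suffix f read 3012 and 1502 on hypoxic wild type 1 and 3, and 1546 and 1291 on hypoxic null 1 and 3. By contrast the control set for the 3′ end of the same transcript read 6430 and 9389 in wild type and 8225 and 8938 in null on those arrays. So the control sets were higher on number 3 while the ordinary sets were lower: log2 differences in wild type were 0.55, 0.75 and 1.14 for the 3′, middle and 5′ control sets and -1.0 and -0.44 for the ordinary sets. In null cells they were 0.12, 0.35 and 0.14 for the controls and -0.26 and -0.36 for the ordinary sets. Neither ordinary set passed against number 1 (changes of -0.58 and -0.53, adjusted p 0.0979 and 0.147, limma), so no direction is given for Actb between these arrays. The ratio of 3′ to 5′ control signal, a common check of RNA integrity, was 1.30 and 1.35 on number 3 and 1.37 to 2.96 on the others.

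**Figure D3:**
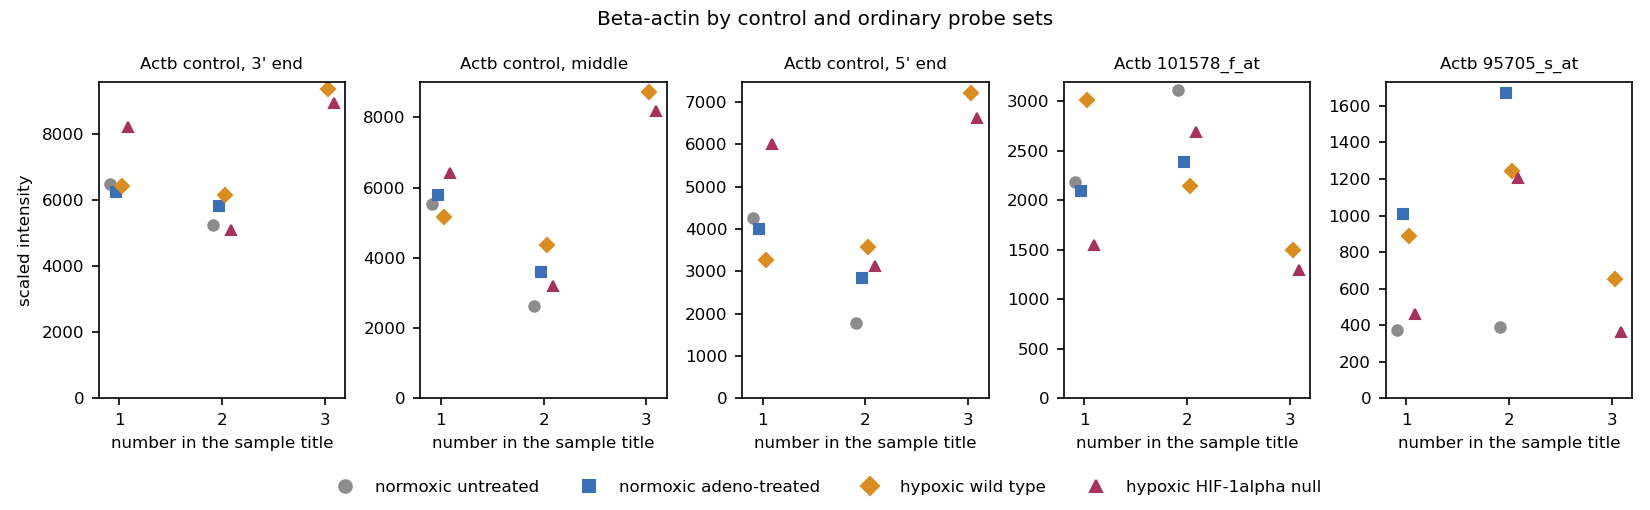
Scaled intensity of the 3 beta-actin control probe sets and the 2 ordinary ones (each panel with its own axis from 0) against the number in the sample title, 1 point per array, coloured by group. The control sets are highest on the number 3 arrays, while the ordinary sets read lower on array 3 than on array 1 in both hypoxic groups.

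Genes that turn filaments over gave both the deepest fall and sets that did not pass. Cotl1, coactosin-like protein, which binds filaments and counters cofilin, read 88.2 and 4.0 on the untreated arrays, 157 and 48.6 on the adeno-treated, 159, 61.8 and 7.0 on hypoxic wild type, and 180, 69.1 and 8.0 on hypoxic null. Every number 2 or 3 array lay below every number 1 array, and the fitted number 3 change was -4.13 (SE 0.45, adjusted p 0.000228, limma). The direct log2 differences of array 3 from array 1 were -3.81 in wild type and -3.86 in null. At 4.0 to 8.0 such readings sit near the 4.7 added before the log, so the size of this fold rests on that offset. Pfn2, the profilin best known from neurons, read 70.6 and 54.0 on the untreated arrays, 47.9 and 37.8 on the adeno-treated, 62.6, 38.2 and 6.3 on wild type, and 70.4, 45.8 and 7.1 on null. Only the number 3 arrays left the range of 37.8 to 70.6, with a change of -2.57. Cfl1, cofilin, the main filament-severing protein of most cells, fell by 0.80 (adjusted p 0.00211, limma), whereas Pfn1, the general profilin, and Cfl2 changed by 0.27 and 0.31 and did not pass.

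In the Arp2/3 complex, which starts branches on existing filaments, 2 of 6 tested subunits fell. Arpc5, its smallest subunit, was 126 and 165 on the number 3 arrays and 254 to 364 on the other 8. Actr3, the Arp3 subunit that forms the nucleus of the new branch, read 2043, 1935 and 1324 on hypoxic wild type and 2245, 1597 and 947 on hypoxic null. Changes were -1.15 for Arpc5 and -0.95 for Actr3, with adjusted p of 0.00155 and 0.00156 (limma). The subunits Arpc1a, Arpc2 and Arpc4 changed by -0.41, -0.43 and -0.27 and Arpc5l by 0.68, none of which passed. Actr6 is an actin-related protein of a nuclear chromatin-remodelling complex and not of the cytoskeleton, and it gave the 1 rise, of 1.03 (SE 0.28, adjusted p 0.0244, limma). It read 51.9, 76.1 and 97.5 on wild type and 46.7, 74.9 and 143 on null, within the 86.2 to 146 of the normoxic arrays on number 3.

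Cross-linkers split between the actinins. Actn1, the alpha-actinin of stress fibres and adhesions, fell on all 3 of its probe sets, with log2 changes of -3.64, -1.91 and -1.57. On the set with no suffix it read 313 and 113 on the untreated arrays, 590 and 340 on the adeno-treated, 686.3, 508 and 79.3 on wild type, and 994, 373 and 52.0 on null. The number 3 arrays were the lowest of all 10 on each of the 3 sets, although the sizes differ between sets. Actn4, the alpha-actinin found in most non-muscle cells including epithelia, read 1594, 973 and 1208 on wild type and 1456, 1031 and 1422 on null, and its change of -0.06 did not pass. Talin, Tln1, which joins integrins to actin, fell on 1 of its 3 sets (-0.95, with -0.30 and -0.39 on the others). Vinculin, Vcl, which strengthens that link, fell on 1 of 2 (-0.52, adjusted p 0.0449, limma; -0.22 on the other), close to the threshold. On the set that fell, the number 3 arrays read 837 and 662, both above the 488 of adeno-treated array 2, and wild type 2 read 844.

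Proteins that lie along the filament were among those that fell most. Tagln, transgelin, an early marker of smooth muscle, read 2214 and 1260 on the untreated arrays, 2191 and 1479 on the adeno-treated, 3761, 1856 and 869 on wild type, and 3697, 1834 and 753 on null. In each group the number 1 array was highest, and the number 3 arrays were the lowest of all 10. The change against number 1 was -2.12 (SE 0.13, adjusted p 2.11e-05, limma), or 4.34-fold. Tpm1, the tropomyosin of muscle and stress fibres, read 1928 and 1239, then 2359 and 1813, then 2362, 1693 and 976, and 2758, 1662 and 967 in the same order, and fell by 1.36. Tpm4 and Tagln2, forms made by many non-muscle cells, fell by 0.92 and 0.71. Tpm2 and Tpm3 changed by 0.13 and 0.15 and did not pass, so 4 of 6 tested sets of this kind fell.

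Of the 4 myosin light chains tested, only Myl9 fell. It read 258 and 261 on the untreated arrays, 202 and 229 on the adeno-treated, 318, 222 and 112 on wild type, and 363, 342 and 185 on null, a change of -1.11 (SE 0.18, adjusted p 0.00241, limma). Myl12b, a closely related regulatory chain of non-muscle myosin, was by contrast highest on the number 3 arrays at 3573 and 3028, although its change of 0.60 did not pass (adjusted p 0.0519, limma). Among heavy chains, Myh11, smooth muscle myosin, read 8.8 and 13.0 on the number 3 arrays and 37.2 to 84.8 on the other 8, and changed by -2.32. Myh9, the main non-muscle myosin II heavy chain, fell on its set with the suffix f (-0.90) and not on the one without (-0.21), so its direction is uncertain. Myh4, Myh7 and Myh14 did not pass. Of 9 sets for unconventional myosins, which move membranes and cargo along actin, 1 fell, near the 12.8% of all probe sets that did. Myo1c, which links membranes to actin, was that set and fell by 0.99 (adjusted p 0.0073, limma). Myo6, the myosin that walks toward the pointed end, changed by -0.24 and 0.16 on its 2 sets.

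Of 17 tested tubulin sets, 4 fell, where 12.8% of all probe sets did, with a median change of -0.20 over the 17. Those that fell were Tuba1a on a set with the suffix i by 1.30, Tubb5 on both its sets by 0.59 and 0.58, and Tuba1c by 0.34 (adjusted p 0.0437, limma). The other Tuba1a set, with the suffix f, changed by -0.45 and did not pass. Most of these sets carry a suffix, and some tubulin genes are closely alike in coding sequence, so the isotype behind each is uncertain. The sets for Tubb6, Tubb2a, Tubb3, Tubb4a, Tubb4b, Tuba8, Tuba4a, Tubg1 and Tubg2 did not pass, with changes of -0.55 to 0.28. The highest of these were the gamma-tubulins Tubg1 and Tubg2, which seed microtubules.

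**Figure D4:**
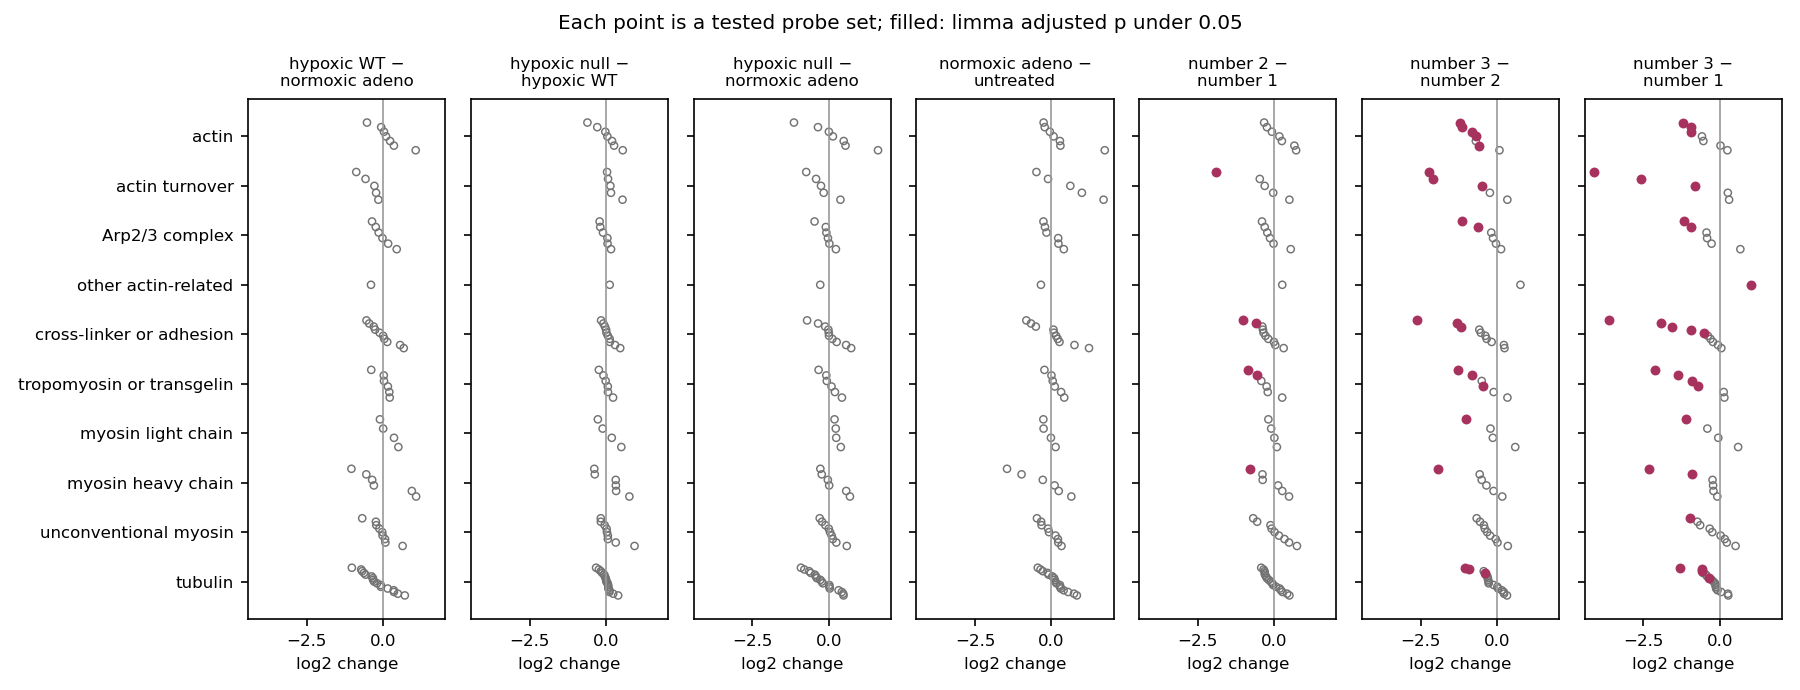
Log2 change of each tested probe set (points) by role (rows) in the 4 group comparisons and the 3 number comparisons (panels), with filled points past a limma adjusted p of 0.05. Filled points appear in the number panels alone, almost all left of 0.

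Number 3 against number 2 gave the same kind of picture, though it shares the number 3 arrays and is not separate evidence. There 21 sets for 18 genes were lower and none was higher, 29.6% of the 71, where 10.3% of all probe sets passed and 6.15% were lower. Tagln changed by -1.27, Acta2 by -1.13, Cotl1 by -2.22 and Pfn2 by -2.10. The count was 7 without hypoxic null array 3 and 8 without hypoxic wild-type array 3. Both ordinary Actb sets passed here, at -1.19 and -0.83, while the control sets did the opposite, as above. Number 2 against number 1, which uses no number 3 array in its values, gave 6 lower sets for 5 genes and none higher, 8.45% where 6.61% of all passed and 3.5% were lower. They were Cotl1 (-1.91), Actn1 on 2 sets (-1.01 and -0.60), Tagln (-0.85), Myh9 on its f set (-0.79) and Tpm1 (-0.56), and 3 sets passed without hypoxic null array 2. The share that passed lies near that of all probe sets, so it is no result about the cytoskeleton genes as a group.

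The number difference was alike in wild-type and null cells. They share no array, but what arrays of the same number have in common is not given, so the likeness may not be separate evidence. For the 71 sets, the log2 difference of array 3 from array 1 correlated across sets at r of 0.804 (Spearman's rank correlation 0.700), and 45 sets were lower in both. Over all 7453 sets r was 0.662, and 35.8% were lower in both, against 63.4% of the cytoskeleton sets. Sets that read one gene are not independent, so these values describe and carry no p. In the normoxic cells only number 2 and number 1 can be compared, and the difference between hypoxic and normoxic cells in that step passed for 0 of the 71 sets (14 at an unadjusted p under 0.05, lowest adjusted p 0.140, limma). Of all 7453 sets 1 passed, with 966 unadjusted, so nearly nothing passed anywhere in this test.

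**Figure D5:**
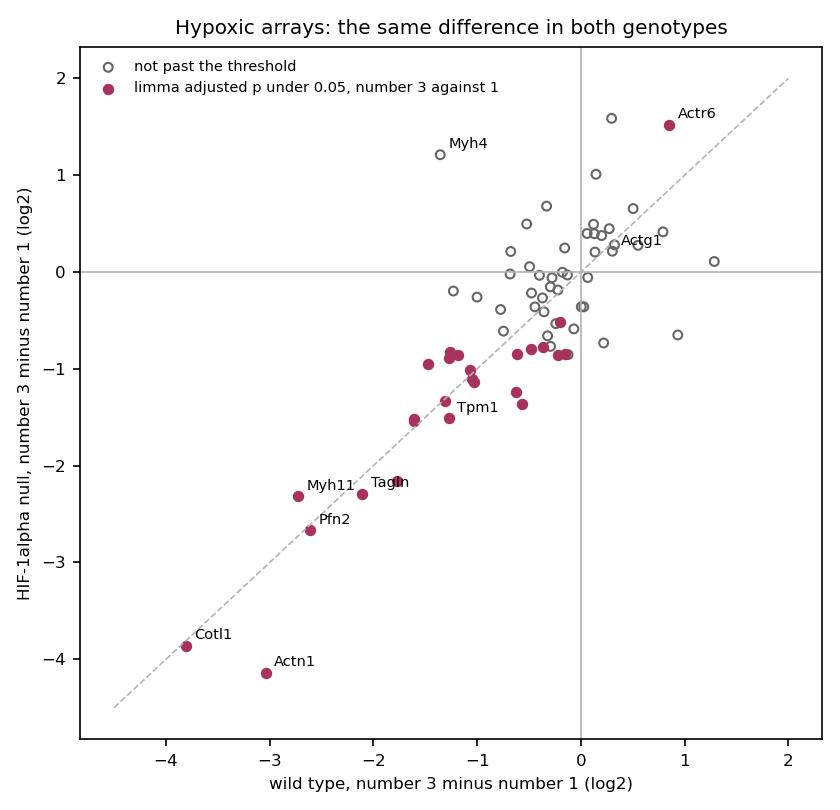
Log2 difference of array 3 from array 1 in hypoxic wild type (x axis) and hypoxic null cells (y axis) for the 71 tested probe sets, with filled points past a limma adjusted p of 0.05 in the joint fit and a dashed line of equality. Points from Tpm1 to Cotl1 run along the line in the lower left, and Myh4 is low in wild type alone.

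Markers of other cells moved along with these differences. Of the 27 tested sets of the stellate cell and fibroblast list 19 were lower on number 3 than on number 1 and none was higher, with a median log2 change of -1.19. All 5 biliary sets were lower (median -3.76), as were 4 of 9 macrophage and 2 of 3 endothelial sets, and 7 of 17 hepatocyte sets were higher (median 0.49). Over all 7453 probe sets 12.8% were lower and 8.99% higher in this comparison, and several of these lists hold few sets. None of the marker genes is among the 77 genes defined at the start, but Krt7 and Krt19 of the biliary list are also on the list of other cytoskeleton genes below. What part the cells of these marker lists, or the 18S signal that sets the same arrays apart, had in the cytoskeleton differences was not tested.

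Other genes of the cytoskeleton, from a list of 78 that includes capping, severing, membrane-linking, keratin and tubulin-folding genes, also held many that fell. They had 86 tested sets for 67 genes, of which 43 were lower on number 3 than on number 1 and none was higher (median -0.45). Of all 7453 probe sets 12.8% were lower and 8.99% higher. The lowest p belonged to Krt19, a keratin of bile duct cells, which read 2291, 589 and 132 on hypoxic wild type and 1602, 564 and 131 on hypoxic null (change -3.78). Cnn1 (calponin of smooth muscle) changed by -3.00, Marcksl1 (a membrane-bound actin regulator) by -2.74, Cnn2 by -2.0 and Pls3 (plastin, a filament bundler) by -1.84. Krt19 and Krt7 are on the biliary marker list as well, so their sets count in both lists.

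Between the study's groups, no cytoskeleton probe set passed in any of the 4 comparisons when the number was left out of the fit. Hypoxic wild type against normoxic adeno-treated cells gave 0 of 71, where 0.335% of all sets passed, with 8 at an unadjusted p under 0.05 and a lowest adjusted p of 0.102 (limma). Hypoxic null against normoxic adeno-treated cells gave 0 where 0.443% of all passed, with 7 unadjusted and a lowest adjusted p of 0.130 (limma). Hypoxic null against hypoxic wild type, the comparison for HIF-1alpha under hypoxia, gave 0 where 0% of all passed, with 1 unadjusted and a lowest adjusted p of 0.999 (limma). Adeno-treated against untreated normoxic cells gave 0 where 0% of all passed, with 8 unadjusted and a lowest adjusted p of 0.494 (limma). The first pair and the last of these comparisons share the normoxic adeno-treated arrays, which enter the last with the opposite sign. Null against wild type shares a hypoxic group with each of the first pair. Median log2 changes of the 71 sets were -0.08, 0.00, 0.05 and 0.09 in this order, against -0.02, 0.01, 0.02 and -0.01 over all.

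Over all probe sets same-number arrays deviated together, so the number was also fitted as a block, and this changed calls. Hypoxic wild type against normoxic adeno-treated cells then gave 4 sets, 3 higher and 1 lower, or 5.63% against 2.2% of all. Hypoxic null against the same cells gave 7, 6 higher and 1 lower (9.86% against 5.81%). Adeno-treated against untreated cells gave 3, of which 2 were higher (4.23% against 0.242%). Null against wild type again gave 0, where 0.107% of all passed, with 4 sets at an unadjusted p under 0.05 and a lowest adjusted p of 0.0773 (limma). With the block the median change of the 71 sets turned from -0.08 to 0.10 in hypoxic wild type and moved from 0.00 to 0.19 in hypoxic null. No call of hypoxic wild type was left without normoxic adeno-treated array 2, none of hypoxic null without either adeno-treated array, and none of adeno treatment without untreated array 2 or either adeno-treated array. In that block fit the stellate list also lay higher in hypoxic cells, with median changes of 0.56 in wild type and 0.37 in null and 2 of 27 sets called in each. The biliary list had medians of 1.77 and 1.43, with 3 and 2 of 5 sets called higher. The hepatocyte list had medians of -0.26 and -0.38, with 4 and 7 of 17 sets called lower. The part of these lists in the cytoskeleton calls was not tested. By group the summed intensity of the stellate list was 9043 to 9103 in untreated, 9408 to 10708 in adeno-treated, 5905 to 16775 in hypoxic wild-type and 5315 to 15348 in hypoxic null cells.

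Tuba4a, an alpha-tubulin, was lower in hypoxic cells of both genotypes. It read 140 and 159 on the untreated arrays, 162 and 212 on the adeno-treated, 93.4, 97.8 and 76.2 on hypoxic wild type and 95.5, 103 and 91.5 on hypoxic null. All 6 hypoxic arrays lay below all 4 normoxic ones. The change was -1.03 in wild type (adjusted p 0.102 without and 0.0286 with the block, limma) and -0.91 in null cells (0.130 and 0.0312). Against each other the hypoxic groups differed by 0.12 (adjusted p 0.999, limma).

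The set for Tubb6, a beta-tubulin made by many cell types, was higher in hypoxic than in adeno-treated cells. It carries the suffix f, so which beta-tubulin it reads is uncertain. It read 2827 and 2291 on the untreated arrays, 2259 and 1539 on the adeno-treated, 3372, 2903 and 2891 on wild type, and 2798, 2531 and 2460 on null. Hypoxic arrays lay above both adeno-treated arrays, but those of null cells overlapped the untreated ones. Changes were 0.71 in wild type (adjusted p 0.282 without and 0.0145 with the block, limma) and 0.47 in null (0.438 and 0.0413).

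Acta1, the actin of skeletal muscle, had the largest hypoxic rise in null cells. It read 202 and 188 on the untreated arrays, 208 and 276 on the adeno-treated, 378, 836 and 412 on wild type, and 476, 1290 and 672 on null. All 6 hypoxic arrays lay above all 4 normoxic ones, and number 2 was highest in both hypoxic groups. The change was 1.62 in null cells (adjusted p 0.229 without and 0.0118 with the block, limma) and 1.06 in wild type (0.553 and 0.0701). Of the 10 genes on a skeletal muscle list 7 were below the filter, and none of the 3 tested sets passed. With the block, the null cells also rose for Actc1 (0.82) and Actg2 (0.75), whose sets can match other actins, for 1 of the 2 Vcl sets (0.69) and for Myl9 (0.75), with adjusted p of 0.0294 to 0.0486 (limma). The other Vcl set changed by 0.11 (adjusted p 0.92, limma). On the set that rose, null cells read 1190, 865 and 662 and untreated cells 1029 and 865, so they overlapped, while the adeno-treated reference read 716 and 488. Myl9 overlapped as well, at 363, 342 and 185 on null 1, 2 and 3. The adeno-treated arrays read 202 and 229 and the untreated 258 and 261, all above null 3.

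Actr3 and Myh9 passed in hypoxic wild type with the block. Actr3 was 1405 and 1159 on the adeno-treated arrays and 2043, 1935 and 1324 on wild type, so the groups overlapped, and its blocked change was 0.71 (adjusted p 0.0402, limma). Myh9 on its f set read 804 and 674 on the untreated arrays, 349 and 202 on the adeno-treated, 1009, 373 and 480 on wild type, and 647, 394 and 318 on null. With the block it fell by 1.45 with adeno treatment (adjusted p 0.0496, limma) and rose by 1.25 in hypoxic wild type (0.0241). The set without a suffix read 1317 and 1411, then 721 and 659, then 1556, 1137 and 1315, then 1478, 719 and 1020, and its changes of -0.98 and 0.94 passed in neither fit. On both sets the adeno-treated arrays, the reference for hypoxia, were among the lowest, and both lay below both untreated arrays.

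Actn4 had a like pattern that passed in no fit: 1346 and 1391 on the untreated arrays, 767 and 776 on the adeno-treated, and 973 to 1594 on the 6 hypoxic. Its changes were -0.82 with adeno treatment and 0.67 and 0.74 with hypoxia in wild type and null (adjusted p 0.494, 0.454 and 0.317, limma). Cfl1 went the other way with adeno treatment, from 2400 and 1560 to 4279 and 3491, a change of 1.0 (adjusted p 0.494 without and 0.0313 with the block, limma). The Actb set with the suffix s rose from 375 and 392 to 1008 and 1668, by 1.75 (0.494 and 0.0369), but the f set changed by -0.22, so the 2 do not give one direction.

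Between null and wild-type hypoxic cells, changes ran from -0.61, for the Actb set with the suffix s, to 0.94, for Myo1c. The lowest p was also that of Myo1c, at 132, 64.7 and 61.5 in wild type and 233, 164 and 106 in null. Null was higher than wild type for each number, but the groups overlapped, and the change of 0.94 (SE 0.34) had an adjusted p of 0.999 (0.0773 with the block, limma). Next came Tubg1 (0.40), Cfl2 (0.54), Myh4 on a set with the suffix r (0.77) and Actn3 on one with f (0.47), with the same adjusted p of 0.999. Of the core actin genes, Actg1 differed by 0.05, Acta2 by -0.02, Tagln by -0.08, Tpm1 by 0.06 and Actn4 by 0.06.

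The 34 probe sets left out were dim on all arrays, the brightest reading being 59.2, for Vim, the mesenchymal filament protein vimentin. For 19 genes no set remained. They were mostly sarcomere genes, such as Myh1, Myh2, Myh3, Myh6, Myh8, Myl1, Myl2, Myl3, Myl7 and Actn2, and also genes that many cells use, such as Flna (filamin, at most 21.4), Myl6 (the essential light chain of non-muscle myosin, at most 23.1) and Myh10. A dim set can mean a weak probe, so nothing is said about these genes' expression.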

How the data were processed

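Each of the 10 samples of hepatocyte total RNA was read on its own array. The deposited values are intensity on a linear scale, already scaled by the authors: the mean between the 2nd and 98th percentiles was 200.1 to 200.2 on every array. How they were made from scans is not stated. The number of arrays limits the precision.

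Before log2 was taken, 4.7 was added, which is the 10th percentile of all deposited values. The 66 control probe sets and sets under the 40th percentile of mean intensity were left out. The model was limma 3.58.1 (R 4.3.3), with lmFit on the 4 groups, eBayes with an intensity trend and a 2-sided test, with Benjamini-Hochberg adjustment over all 7453 sets and a threshold of 0.05. Number comparisons added a term for the number. The scripts were tested on simulated data.

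Numbers were taken to pair arrays because all 13 same-number pairs of deviations from group means correlated above 0.1 over all probe sets (lowest 0.103, highest 0.677, different numbers -0.514 to 0.253). These pairs are not independent. In a group of 2 arrays the deviations are exact opposites, so the untreated and adeno-treated arrays gave 0.378 for both same-number pairs and -0.378 for both others. Centring on group means thus forces part of the contrast between same and different numbers. Over the 71 cytoskeleton sets alone the ranges were wider and overlapped, from -0.178 to 0.810 and from -0.697 to 0.516. Gene symbols came from the platform table, all 77 genes matching GRCm38.p6, and promoters from RefSeq.

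The members and lists were chosen with earlier results of these data known. Named are the sets past the threshold, otherwise the 5 of smallest p, a core of cytoskeleton genes and up to 5 genes of the other cytoskeleton list. Alternatives varied the offset, filter, normalization, trend, reference arrays, the block and each array.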

Additional observations from a re-analysis of the deposited data

How the results depend on the processing

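The counts below are of cytoskeleton probe sets past the threshold, and no named set past the threshold changed sign under any alternative run. Fitting the number as a replicate block raised hypoxic wild type against normoxic adeno-treated cells from 0 to 4, hypoxic null against the same cells from 0 to 7 and adeno-treated against untreated cells from 0 to 3, while null against wild type stayed at 0. With the block and without the number 3 arrays these counts were 1, 2 and 0, and with the block and any 1 array left out they were 0 to 2, 0 to 3 and 0 to 4. The block calls of hypoxic wild type all went without normoxic adeno-treated array 2, and those of hypoxic null without either adeno-treated array. Without the block, leaving out any 1 array left all 4 group counts at 0. With all 4 normoxic arrays as control, 1 set passed in null cells, Acta1. Number 3 against 1 gave 26 sets, 15 to 25 with 1 array left out (15 without null array 3, 20 without wild-type array 3) and 17 with plain, unsuffixed sets alone, an alternative chosen after seeing the data. The 12 sets for Acta2, Actn1 (all 3), Actr3, Arpc5, Cotl1, Myh11, Myl9, Pfn2, Tagln and Tpm1 passed under every alternative in which they were tested. Number 3 against 2 gave 21 sets, 13 without the intensity trend, 12 with the normoxic groups as 1 level, 12 with plain sets and 7 to 21 with 1 array left out (7 without null array 3, 8 without wild-type array 3, 13 without either number 2 hypoxic array). Number 2 against 1 gave 6 sets, 10 after quantile normalization, 12 in the hypoxic arrays alone, 2 with the normoxic groups as 1 level and 3 to 9 with 1 array left out (3 without null array 2). With 2 or 3 arrays a group, small changes cannot be told from none, and sets near the offset of 4.7 give folds that depend on it.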
